A study of Mus musculus with 5 samples.

Results

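Igf2, H19, Igf2r, Peg3, Mest, Grb10, Plagl1 and Dlk1 are 8 mouse genes that are imprinted, meaning that the copies inherited from mother and father are not equally active, and that bear on the growth of the embryo. They were taken from 2-colour oligonucleotide arrays as all spotted features whose name, known synonym or RefSeq accession is that of 1 of the genes. This gave 17 of 28845 features and 8 of 14962 named genes. Igf2 and Mest had 1 feature each, Igf2r, H19, Plagl1 and Dlk1 had 2, Peg3 had 3 and Grb10 had 4. The brighter H19 feature carries no gene symbol and was recognised through its description, while the dimmer one is named H19. The rule uses no measured value.

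The study followed mouse stem cells as they formed heart tissue in embryoid bodies, the cell aggregates in which stem cells differentiate in culture. The 4 populations, each sorted for a lineage marker, were undifferentiated cells positive for Rex1 (day 0), early mesoderm positive for Bra (day 4.5), cardiac mesoderm positive for Flk1 (also day 4.5), and progenitors of the heart that express Nkx2.5 (day 7.5). The labels name no treatment and no genotype, and the sources used here do not name the cell line, the means of sorting or any pooling. RNA of 2 populations was hybridised on each of 5 arrays, 1 array a pair. Bra, Flk1 and Nkx2.5 cells were each set against Rex1 cells, and Nkx2.5 cells also against Bra cells and against Flk1 cells. No array paired Flk1 with Bra. In a name such as Bra over Rex1 the population named first was labelled with Cy5 and the other with Cy3, so Rex1 RNA was always in Cy3 and Nkx2.5 RNA always in Cy5. Each ratio was measured once, so a difference between populations cannot be told apart from a difference between these RNA samples. No p-value is given: the 2 closed triangles of arrays measure the error of the arrays and not the spread between samples of a population.

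Imprinted genes are held in clusters whose parental copies carry different DNA methylation marks. Many paternally expressed members, such as Igf2, Peg3, Mest, Plagl1 and Dlk1, promote growth or the growth of particular tissues, while maternally expressed members such as H19, Igf2r and, in most tissues, Grb10 restrain it. Igf2 encodes insulin-like growth factor 2, a fetal growth factor. Igf2r encodes the receptor that carries it to lysosomes for destruction. H19 is a non-coding RNA from the neighbouring gene that shares enhancers with Igf2 in mesoderm and endoderm. The array cannot separate the parental copies, so the values describe the summed RNA of both and say nothing of imprinting itself.

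Of the 8 genes, H19, Igf2 and Mest hold a microRNA within their span. The array features read the long host transcripts and not the microRNAs. The mature sequences from RefSeq (GRCm38.p6) are shown because H19, Igf2 and Mest are 3 of the 4 genes with the widest spread of levels below, and these are the small RNAs that their transcripts can give rise to. Capitals mark the seed, bases 2 to 8.
miR-675-5p, in H19, chr7:142577112-142577133, minus strand: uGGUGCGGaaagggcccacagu
miR-675-3p, in H19, chr7:142577078-142577099, minus strand: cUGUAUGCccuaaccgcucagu
miR-483-5p, in Igf2, chr7:142654968-142654989, minus strand: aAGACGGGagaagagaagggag
miR-483-3p, in Igf2, chr7:142654932-142654952, minus strand: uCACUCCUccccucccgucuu
miR-335-5p, in Mest, chr6:30741314-30741336, plus strand: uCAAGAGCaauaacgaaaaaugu
miR-335-3p, in Mest, chr6:30741354-30741375, plus strand: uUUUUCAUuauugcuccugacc
None of the 6 seeds is shared by another of these microRNAs or by any other mature mouse microRNA of the table, which counted 0 others for each seed.

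Each comparison was read along 2 routes. The first reading is the log2 ratio on the pair's own array. The second is an indirect value, summed over the arrays that link the pair through another population, and averaged where there are 2 such links, as in Nkx2.5 over Rex1. For Flk1 over Bra both readings are indirect, the difference of the arrays against Rex1 and the difference of the arrays against Nkx2.5. A gene counted as higher or lower where its 2 readings lay in the same direction, each at a log2 ratio of at least 1, a fold of 2, and the brighter population was well above background on all its arrays. Well above background means a net signal over percentile 95 of 96 negative control spots in that array and channel. The readings of different comparisons share arrays, so a gene's values in them are not independent. The disagreement of the routes over 24885 genes and unnamed transcripts corresponds to an average error of 0.24 in the log2 ratio of 1 array. As no dyes were exchanged, a dye effect that is the same on all 5 arrays would stand in the gap between the routes, and values fitted with such a dye term, an alternative added after the data were seen, are given where they differ.

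The median net signal of a channel was 0.302 to 0.340 of its background for Rex1 RNA and 0.597 to 1.497 for the other channels, so low signals were least certain in the stem cells. Between 77.6% and 95.2% of features were well above background. The sorting markers leaned the way of the labels, but only Zfp42, which encodes Rex1, passed, with first and second readings of -1.68 and -2.25 in Nkx2.5 over Rex1. T, which encodes Brachyury, read 1.07 and 0.73 in Bra over Rex1, Kdr, which encodes Flk1, 0.68 and 0.64 in Flk1 over Rex1, and Nkx2-5 0.53 and 0.91 in Nkx2.5 over Rex1. In such bulk samples, fewer cells that make an RNA and less of that RNA per cell cannot be told apart.

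H19 was the 1 gene of the 8 that passed the size rule. It was higher in Nkx2.5 cardiac progenitors than in Rex1 stem cells and than in Bra mesoderm. The other 7 genes passed in none of the 6 comparisons. Among all genes and transcripts, 3.02% passed in either direction in Nkx2.5 over Rex1 and 2.35% were higher. In Nkx2.5 over Bra, 0.334% passed in either direction and 0.273% were higher. The rule was met by 1 of 8 in each of these, and 8 genes are too few to set their share apart from these values. None of the 8 passed in Bra over Rex1, where 1.27% of all did, in Flk1 over Rex1, where 0.848% did, in Nkx2.5 over Flk1, where 0.386% did, or in Flk1 over Bra, where 0.0241% did.

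**Figure D1:**
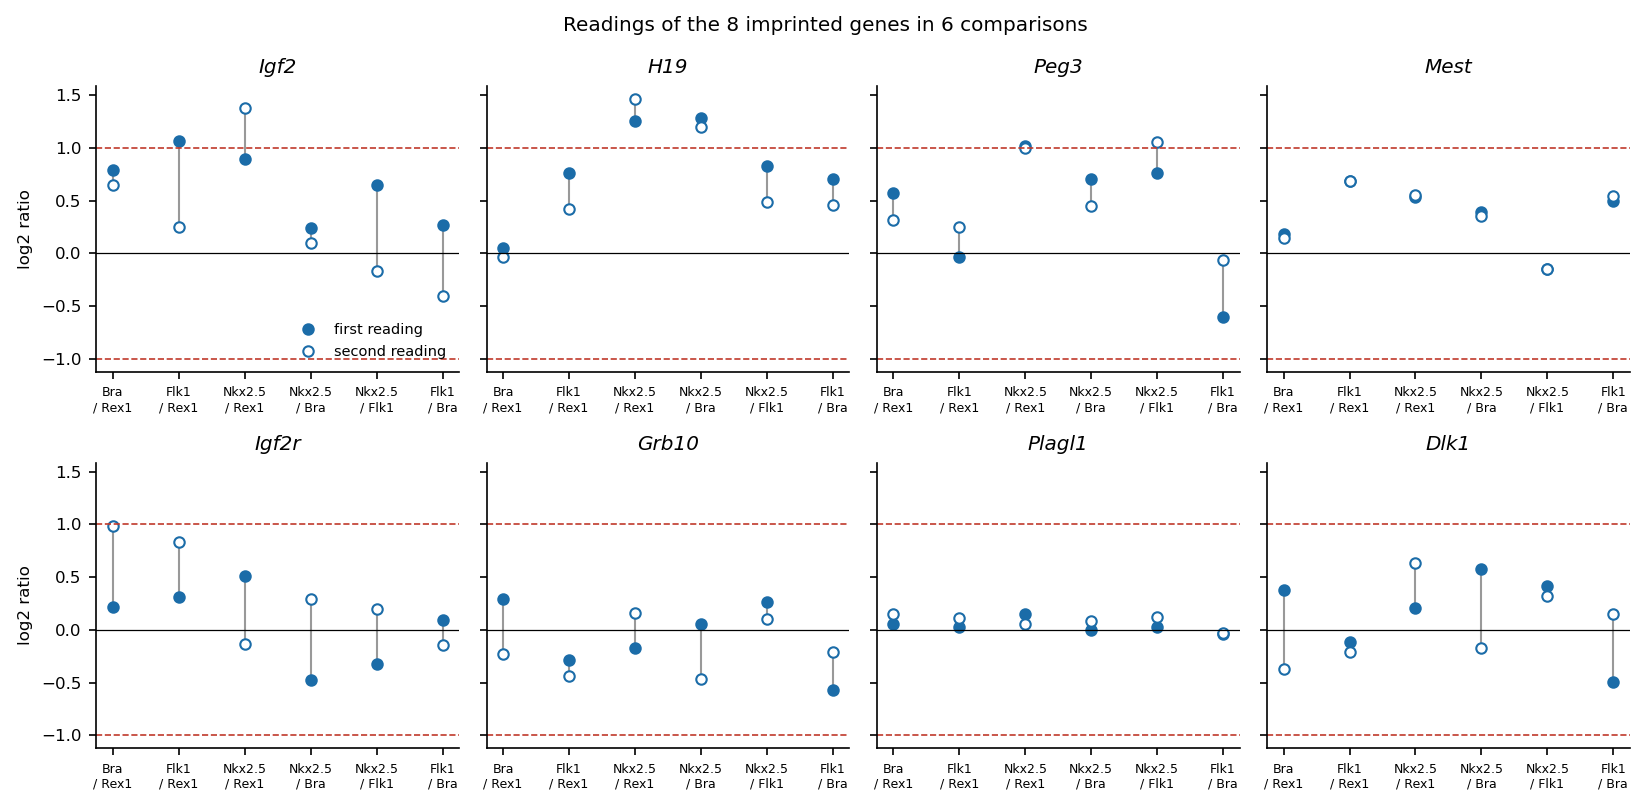
Log2 ratios (vertical axis) of the 8 genes in the 6 comparisons (horizontal axis), with filled points for the first reading and open points for the second; dashed lines mark log2 ratios of 1 and -1. Only H19 has both points beyond a line, in Nkx2.5 over Rex1 and Nkx2.5 over Bra, and the points of Mest and Plagl1 nearly coincide.

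On the Bra over Rex1 array the brighter H19 feature gave a net signal of 6938 in Bra and 4276.5 in Rex1, and on the Flk1 over Rex1 array 8863.5 in Flk1 and 4600 in Rex1. With Nkx2.5 RNA in Cy5 it gave 18414 beside 6621 in Rex1, 23711 beside 11988.5 in Bra and 23032 beside 11467 in Flk1. The progenitor channel was thus the brighter on each of the 3 arrays that carried it. All 10 channel values lay above the limit of the negative controls, which ran from 774.5 to 2251.75. Scanner signals are not yet dye-balanced, and the readings that follow are after normalisation within each array.

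For H19 in Nkx2.5 over Rex1 the first reading was 1.25 and the second 1.46, folds of 2.38 and 2.76. In Nkx2.5 over Bra they were 1.29 and 1.20, folds of 2.44 and 2.30. Of all genes and transcripts, 2.49% had a first reading as large in size in Nkx2.5 over Rex1 and 0.273% in Nkx2.5 over Bra. With a dye term in the fit H19 stood 1.04 above Rex1 and 1.14 above Bra in Nkx2.5 cells, and the term itself was 0.21. Without background subtraction its first readings in these comparisons were 0.79 and 0.81, and both calls were lost. H19 did not pass in Nkx2.5 over Flk1, where the readings were 0.83 and 0.49, in Flk1 over Rex1, at 0.76 and 0.42, or in Flk1 over Bra, at 0.71 and 0.46. The 6 readings of H19 in Nkx2.5 over Flk1, Flk1 over Rex1 and Flk1 over Bra were positive and larger than the average error of 1 array. In Bra over Rex1 the readings were 0.05 and -0.04, inside that error. The order of H19 was therefore Nkx2.5, then Flk1, then Bra and Rex1, with fitted levels of 0.84, 0.13, -0.45 and -0.52 on a log2 scale centred on the 4 populations. The gap of 0.06 between Bra and Rex1 is inside the error, and the gaps of 0.71 and 0.58 above it are not.

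The dimmer H19 feature, named as such in the files, gave the same 2 calls. Its net signal was 4014 in Bra beside 3041.5 in Rex1, 5639.5 in Flk1 beside 2444.5 in Rex1, and 14665.5 in Nkx2.5 beside 4754 in Rex1. In the other arrays it was 20273.5 in Nkx2.5 beside 9300 in Bra, and 19444.5 in Nkx2.5 beside 10059.5 in Flk1. Its readings were 1.39 and 1.51 in Nkx2.5 over Rex1 and 1.56 and 1.80 in Nkx2.5 over Bra. In Flk1 over Bra it read 1.53 and 0.80, further apart than the brighter feature, and in Flk1 over Rex1 1.12 and 0.63. Both features thus put Flk1 cells above Bra cells of the same day in both readings, and neither passed there. The fitted order of this feature was Nkx2.5 at 0.93, Flk1 at 0.38, Rex1 at -0.52 and Bra at -0.79.

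**Figure D2:**
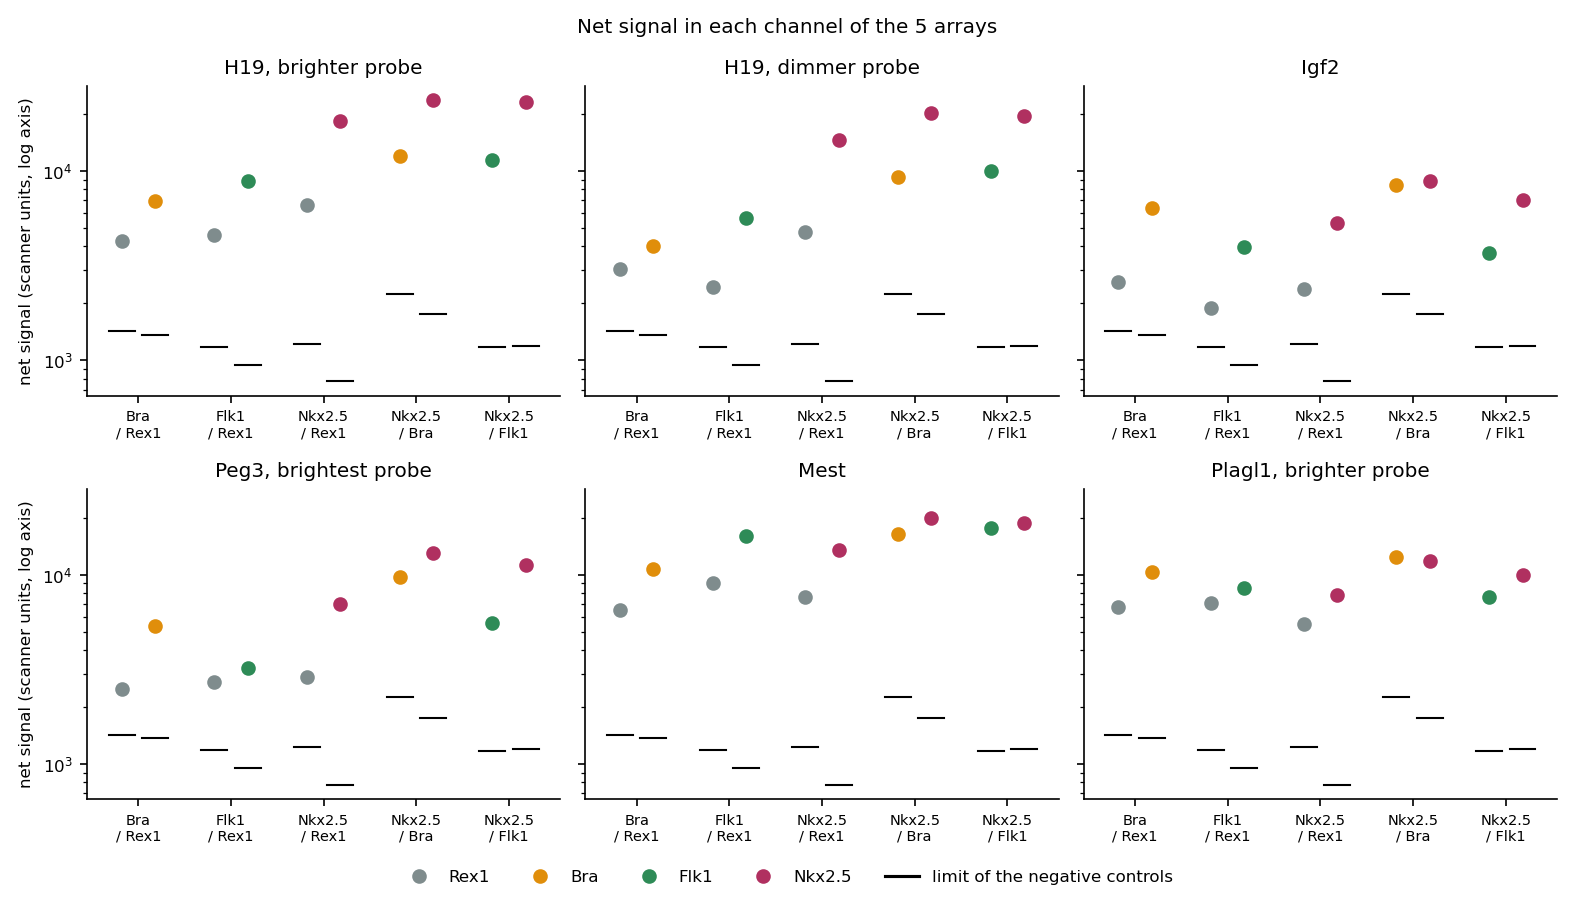
Net scanner signal on a log axis in both channels of the 5 arrays (horizontal axis, Cy3 to the left and Cy5 to the right of each pair) for both H19 features, Igf2, Mest and the brightest features of Peg3 and Plagl1; colours give the population and black bars the limit set by the negative controls. All points lie above their limit, and both H19 features are brightest in the 3 Nkx2.5 channels.

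Markers of other cell types moved in the same comparisons. Of 8 markers of extraembryonic and definitive endoderm, 4 passed as higher in Nkx2.5 over Rex1, namely Afp, Ttr, Cubn and Sox17, and 2 in Nkx2.5 over Bra, Afp and Ttr. The rest did not go the same way in Nkx2.5 over Rex1. Apob read -0.50 and -0.38, Amn 0.05 and -0.25, Foxa2 0.27 and 0.29, and Apoa1 0.25 and 0.62. Ttr, which encodes the transport protein transthyretin of yolk sac and liver, read 1.98 and 1.83 in Nkx2.5 over Rex1. The summed net signal of the 8 markers was 13244.5 to 15375.5 over 3 Rex1 channels, 27323 and 47732 in Bra, 23382.5 and 27532.5 in Flk1, and 40683.5 to 70833.5 over 3 Nkx2.5 channels. Afp, Cubn and Apob were not well above background in any Rex1 channel. Of 5 blood markers 2 passed as higher in both comparisons, Hbb-y and Hba-a1, and their summed signal was 22680.5 to 35956 in Rex1 and 77515.5 to 103016 in Nkx2.5. None of the 8 fibroblast markers passed in any comparison, with sums of 32477.5 to 34174.5 in Rex1 and 48461.5 to 67803.5 in Nkx2.5. Of 7 heart muscle markers 4 passed as higher in each of these comparisons. In Nkx2.5 over Rex1 the rest read 0.78 and 0.83 for Csrp3, 0.55 and 0.46 for Actc1, and -0.22 and -0.29 for Myh6. The sums of the 7 were 28856 to 32488.5 in Rex1 and 85896.5 to 120920.5 in Nkx2.5. These sums are scanner signals before normalisation, so they also carry differences between dyes and arrays. The median net signal of all features was 2520 to 2755.5 in Rex1 and 3358.5 to 6227.5 in Nkx2.5. The 5 neural markers, of which 0 passed in any comparison, summed to 23204.5 to 26058 in Rex1 and 29991 to 51066 in Nkx2.5. The part of any of these cell types in the H19 values was not tested.

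Igf2 passed in no comparison and read 0.90 and 1.38 in Nkx2.5 over Rex1. Its net signal was 6381.5 in Bra beside 2585 in Rex1, 3967 in Flk1 beside 1881.5 in Rex1, and 5294.5 in Nkx2.5 beside 2373.5 in Rex1. Among the differentiated cells it was 8893 in Nkx2.5 beside 8484.5 in Bra, and 6997.5 in Nkx2.5 beside 3709.5 in Flk1. The Rex1 channel was the dimmer on all 3 arrays that carried it, as it also was in the median over all features. This is therefore not particular to Igf2. In Bra over Rex1 the readings were 0.80 and 0.65. In Flk1 over Rex1 they were 1.07 and 0.25, further apart than the average error. In Nkx2.5 over Flk1, at 0.65 and -0.17, and in Flk1 over Bra, at 0.27 and -0.40, they took opposite signs. The fitted levels were 0.45 in Nkx2.5, 0.15 in Bra, 0.09 in Flk1 and -0.69 in Rex1. Bra and Flk1 did not differ beyond the error, while Rex1 lay 0.78 below the nearest population. Without background subtraction the first readings against Rex1 were near 0, at -0.08, -0.05 and -0.01 in Bra, Flk1 and Nkx2.5, so the size of the Igf2 ratio rests on how the high Cy3 background is removed. With a dye term in the fit Igf2 stood 0.48, 0.42 and 0.42 above Rex1 in Bra, Flk1 and Nkx2.5, so that Nkx2.5 was no longer the highest.

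H19 and Igf2 lie beside each other, and in the main fit, made without a dye term, their levels are of different shape. Bra cells stood 0.84 above Rex1 cells for Igf2 and 0.06 above them for H19, while Nkx2.5 cells stood 0.36 above Flk1 cells for Igf2 and 0.71 for H19. With a dye term the Bra and Rex1 difference was 0.48 for Igf2 and -0.10 for H19. The Nkx2.5 and Flk1 difference was then -0.003 and 0.55. Without background subtraction the first readings in Bra over Rex1 were -0.08 for Igf2 and 0.08 for H19, so that contrast was not kept. In Nkx2.5 over Flk1 they were 0.02 and 0.60. The 2 main readings of Igf2 in Nkx2.5 over Flk1 had opposite signs. The difference between the genes was not tested, since each ratio was measured once.

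Peg3 encodes a large zinc finger protein, and its brightest feature lay at the threshold in Nkx2.5 over Rex1. The net signal there was 6990 in Nkx2.5 beside 2860.5 in Rex1, and the readings were 1.02 and 0.998, so the rule was missed by the second reading. On the other arrays the signal was 5383 in Bra beside 2474.5 in Rex1, 3194.5 in Flk1 beside 2707.5 in Rex1, 13012.5 in Nkx2.5 beside 9655 in Bra, and 11193.5 in Nkx2.5 beside 5552.5 in Flk1. The readings were 0.76 and 1.06 in Nkx2.5 over Flk1, 0.70 and 0.45 in Nkx2.5 over Bra, and 0.57 and 0.32 in Bra over Rex1. Flk1 over Rex1 stayed at -0.04 and 0.25. The order was Nkx2.5 at 0.62, Bra at 0.05, Flk1 at -0.28 and Rex1 at -0.39, with Flk1 and Rex1 not different beyond the error.

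The other Peg3 features did not show this pattern. The next brightest read -0.03 and 0.21 in Nkx2.5 over Rex1, with net signals of 3145.5 and 2438, and its 4 fitted levels lay between -0.11 and 0.12. The dimmest was well above background on 0 of 3 Rex1 arrays, 0 of 2 Flk1 arrays, 1 of 2 Bra arrays and 1 of 3 Nkx2.5 arrays, and was marked as bad on 1 array. Averaged over its features, Peg3 read 0.40 in Nkx2.5 over Rex1. Which of the features follows the Peg3 transcript was not tested.

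Mest, which encodes a hydrolase-like protein of mesoderm-derived tissue, had the closest routes of the 8 genes. Its net signal was 10687 in Bra beside 6502 in Rex1, 16072 in Flk1 beside 9000 in Rex1, and 13426.5 in Nkx2.5 beside 7654 in Rex1. In the other arrays it was 19837.5 in Nkx2.5 beside 16448 in Bra, and 18736.5 in Nkx2.5 beside 17684 in Flk1. The readings were 0.68 and 0.69 in Flk1 over Rex1, 0.54 and 0.55 in Nkx2.5 over Rex1, and 0.50 and 0.54 in Flk1 over Bra. In Bra over Rex1 they were 0.19 and 0.15, and in Nkx2.5 over Flk1 -0.15 and -0.14, both inside the error. The largest residual of an array from the fitted levels was 0.015. The order was Flk1 at 0.34, Nkx2.5 at 0.19, Bra at -0.18 and Rex1 at -0.35, and the gap of 0.38 between Nkx2.5 and Bra is the 1 that exceeds the error. The ratios stayed under the size rule in all comparisons, so Mest is described by these values alone.

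**Figure D3:**
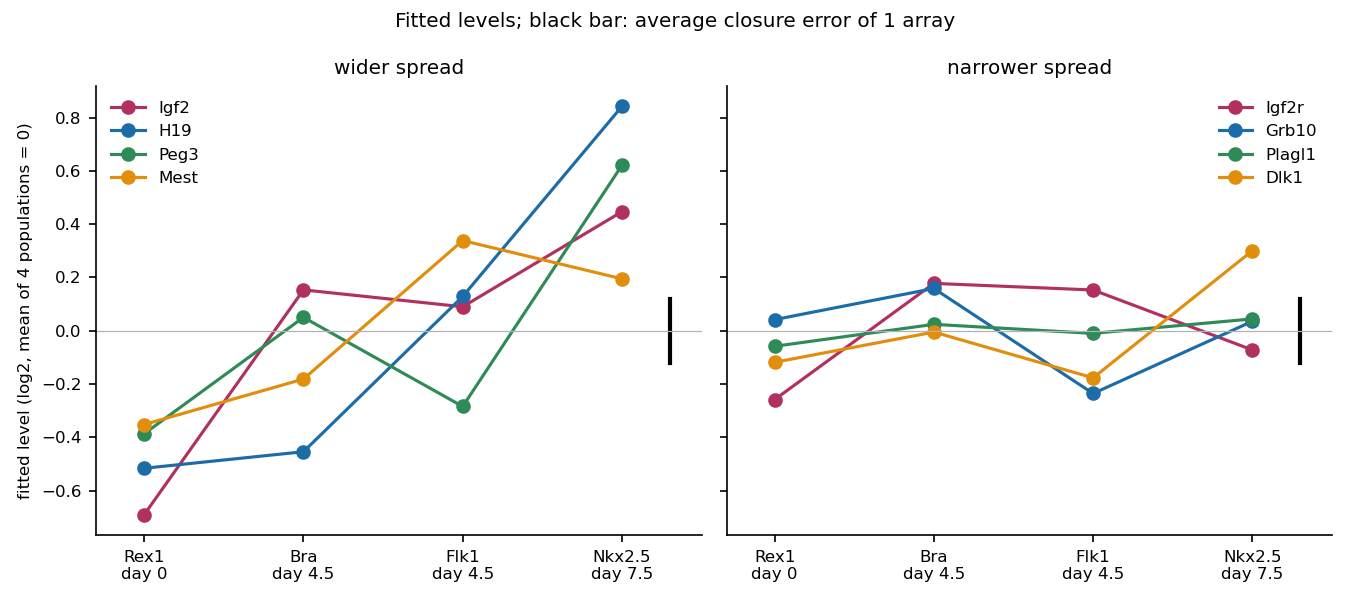
Fitted log2 levels (vertical axis, mean of the 4 populations set to 0) of the 8 genes in Rex1, Bra, Flk1 and Nkx2.5 cells, with lines only to guide the eye and a black bar as long as the average error of 1 array, 0.24. In this fit, made without a dye term, H19, Igf2 and Peg3 are highest in Nkx2.5 cells and Mest in Flk1 cells, while Plagl1 is nearly level.

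The remaining 4 genes spanned less. Plagl1, a zinc finger transcription factor of the imprinted network, had fitted levels between -0.06 and 0.04 through its brighter feature, a spread of 0.10 that 92.7% of all genes and transcripts reached. Its net signals were well above the limit in all channels, from 5464.5 to 12452, and all 12 readings lay between -0.04 and 0.15. The dimmer Plagl1 feature read 0.32 and 0.53 in Nkx2.5 over Rex1 and had levels from -0.22 to 0.21. Both features stayed under the size rule.

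Dlk1, a membrane protein of the Notch ligand family that is best known for holding back fat cell formation, had fitted levels of 0.30 in Nkx2.5, -0.005 in Bra, -0.12 in Rex1 and -0.18 in Flk1. The gap of 0.31 above Bra exceeds the error and the others do not. The readings were 0.21 and 0.63 in Nkx2.5 over Rex1 and 0.42 and 0.32 in Nkx2.5 over Flk1, while in Bra over Rex1, at 0.38 and -0.37, the routes took opposite signs. With a dye term in the fit Dlk1 turned to -0.22 in Nkx2.5 over Rex1. The dimmer feature read 0.05 and 0.42 in Nkx2.5 over Rex1.

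Igf2r had its highest fitted level in Bra at 0.18, followed by Flk1 at 0.15, Nkx2.5 at -0.07 and Rex1 at -0.26, and no neighbouring populations differed beyond the error. The readings were 0.21 and 0.98 in Bra over Rex1 and 0.31 and 0.84 in Flk1 over Rex1, so the indirect routes were the larger. In Nkx2.5 over Rex1 they disagreed in sign, at 0.51 and -0.14. With a dye term in the fit Igf2r stood 0.92, 0.90 and 1.16 above Rex1 in Bra, Flk1 and Nkx2.5, so the place of Nkx2.5 in the order depends on that term. The dimmer Igf2r feature read -0.40 and -0.20 there.

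Grb10 encodes an adaptor that binds the activated insulin and IGF1 receptors, and its 4 features disagreed. In Bra over Rex1 their first readings were 0.29, -0.02, -0.999 and 1.21 and their second readings -0.23, 0.57, -0.08 and 0.50, from the brightest to the dimmest. The feature at -0.999 was well above background on 1 of 2 Bra arrays, and the one at 1.21 on 2 of 3 Rex1 arrays and 1 of 2 Flk1 arrays. The brightest had levels from -0.24 in Flk1 to 0.16 in Bra. No Grb10 feature passed in any comparison, and their lack of a common direction leaves no order of the populations to give.

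**Figure D4:**
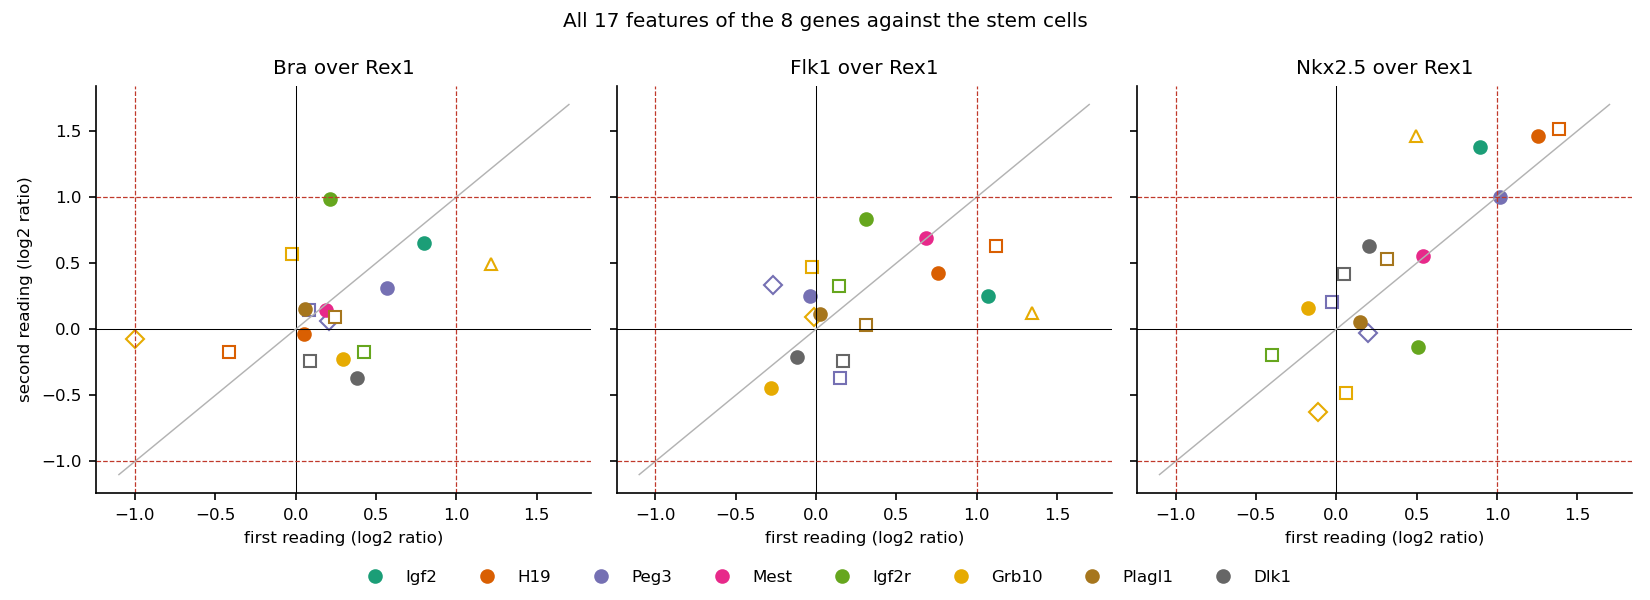
First reading (horizontal axis) against second reading (vertical axis), both log2 ratios, of all 17 features in the 3 comparisons with Rex1; colours give the gene, filled points the brightest feature of a gene, open points the others, dashed lines log2 ratios of 1 and -1, and the grey line equal readings. Both H19 features lie in the upper right corner of Nkx2.5 over Rex1, whereas the Peg3 and Grb10 features spread apart.

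As a group, the 8 genes had a median first reading of 0.52 and a median second reading of 0.59 in Nkx2.5 over Rex1, beside 0.01 and 0.01 over all genes and transcripts. These medians rest on the brightest feature of each gene and on the main background correction. Over the 6 comparisons, 22 first readings of the 8 genes moved beyond the error of 1 array without background subtraction. With the mean over features 12 moved. Group medians were not taken under those settings. First readings without background subtraction in Nkx2.5 over Rex1 were 0.79 for H19, 0.41 for Peg3, 0.35 for Mest and 0.16 for Igf2r. They were 0.11 for Dlk1, 0.07 for Plagl1, -0.01 for Igf2 and -0.04 for Grb10. The mean over features gave 1.32 for H19, 0.90 for Igf2, 0.54 for Mest and 0.40 for Peg3. It gave 0.23 for Plagl1, 0.13 for Dlk1, 0.07 for Grb10 and 0.05 for Igf2r. Under the main setting both readings in Nkx2.5 over Rex1 were above 0 for 6 of the 8 and below 0 for 0. In Bra over Rex1 the medians were 0.25 and 0.15, with both readings above 0 for 5 genes, and in Flk1 over Rex1 0.17 and 0.25, with 5 above and 2 below. These 3 comparisons share the Rex1 cells, so they are not independent. The share of all genes and transcripts with both readings above 0 was not counted, so these counts of direction have no baseline. In Nkx2.5 over Bra the medians were 0.32 and 0.20, in Nkx2.5 over Flk1 0.34 and 0.16, and in Flk1 over Bra 0.03 and -0.05. The spread of fitted levels was 1.36 for H19, 1.14 for Igf2, 1.01 for Peg3 and 0.69 for Mest, against a median of 0.32 and a 95th percentile of 1.07 over all genes and transcripts. A spread as large as that of H19 was found for 2.69% of them, as that of Igf2 for 4.19%, as that of Peg3 for 5.62% and as that of Mest for 12.8%. The Peg3 spread is that of its brightest feature, while the levels of the next brightest lay between -0.11 and 0.12. With a dye term in the fit Igf2 stood 0.48, 0.42 and 0.42 above Rex1 in Bra, Flk1 and Nkx2.5.

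RefSeq (GRCm38.p6) gave 13 start sites for 7 of the 8 genes, and the 250 bases before each were searched on both strands for 5 motifs. The TATA box, searched as TATAAA, was found before none of the 13 starts, and before 12.4% of all 32851 starts of the table. The GC box, searched as GGGCGG, was found before 32.7% of all starts and before 8 of the 13, which belong to Mest, Igf2, Plagl1, Grb10 and Igf2r. The stretches before 2 of the Mest starts, chr6:30737800-30738049 and chr6:30737803-30738052, overlap almost wholly. They hold the same GC box, which is thus counted for both. It occurred 5 times before a Grb10 start. The E-box, searched as CACGTG, was found before 6.02% of all starts, and occurred 2 times before Igf2r and 1 time before Plagl1. The cAMP response element, searched as TGACGTCA, and the CCAAT box were the others. The count of CG pairs ran from 1 before the first of 4 Igf2 starts to 40 before that Grb10 start, beside a median of 6 over the table.

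The 250 bases before the Peg3 start and before the last of the 4 Igf2 starts are shown, because these are the protein-coding genes of the 8 with the widest spread of levels. Capitals mark every match to the searched motifs.
Peg3, chr7:6730420-6730669, minus strand: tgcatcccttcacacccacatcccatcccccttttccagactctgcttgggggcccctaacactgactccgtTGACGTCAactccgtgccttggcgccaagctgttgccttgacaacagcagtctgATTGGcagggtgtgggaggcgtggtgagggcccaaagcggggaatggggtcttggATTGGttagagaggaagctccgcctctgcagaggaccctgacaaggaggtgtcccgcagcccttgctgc
Igf2, chr7:142657497-142657746, minus strand: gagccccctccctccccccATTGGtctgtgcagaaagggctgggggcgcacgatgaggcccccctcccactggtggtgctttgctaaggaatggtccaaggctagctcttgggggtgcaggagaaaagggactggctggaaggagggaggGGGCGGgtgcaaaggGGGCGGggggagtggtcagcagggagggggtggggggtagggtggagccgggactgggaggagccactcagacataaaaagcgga
The Peg3 stretch holds TGACGTCA, which 1.55% of all starts have, and 2 copies of CCAAT read on the opposite strand, which 33.8% have at least once. The Igf2 stretch holds CCAAT once and GGGCGG at 2 places. A match is a description of the letters and not of binding, and the single Igf2 feature does not tell its 4 starts apart.

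Other imprinted genes passed the size rule as well, mainly against stem cells. Of 50 further imprinted genes listed, 43 were on the array. In Nkx2.5 over Rex1, 3 passed as higher and 0 as lower, in Flk1 over Rex1 3 and 1, and in Bra over Rex1 2 and 1. In Nkx2.5 over Bra 1 was higher, and in Nkx2.5 over Flk1 and Flk1 over Bra 0 of 43 passed. Over all genes and transcripts, 3.02% passed in either direction in Nkx2.5 over Rex1, 0.848% in Flk1 over Rex1 and 1.27% in Bra over Rex1. The shares were 0.334% in Nkx2.5 over Bra, 0.386% in Nkx2.5 over Flk1 and 0.0241% in Flk1 over Bra. Whether the 43 genes differ from these shares was not tested. Their median first reading was 0.09 in Nkx2.5 over Rex1, 0.08 in Flk1 over Rex1 and 0.08 in Bra over Rex1, close to the 0.01, 0.01 and 0.00 over all genes and transcripts.

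Nnat, which encodes the membrane proteolipid neuronatin, read 1.36 and 1.12 in Nkx2.5 over Rex1 and 1.04 and 1.17 in Flk1 over Rex1. Nap1l5, a nucleosome assembly protein relative, and Ppp1r9a, an actin-binding scaffold, passed as higher in all 3 comparisons with Rex1. Neither was well above background in any Rex1 channel. Their folds in Nkx2.5 over Rex1 are therefore given as at least 1.18-fold and at least 1.47-fold, estimates that assume no dye effect. Phlda2, which restrains placental growth and lies in the cluster next to that of Igf2, was lower in Flk1 over Rex1, at -1.46 and -1.21, and read -0.81 and -1.15 in Nkx2.5 over Rex1. Ddc, an enzyme of amine synthesis whose gene is the neighbour of Grb10, was lower in Bra over Rex1, at -1.34 and -1.26, and higher in Nkx2.5 over Bra, at 1.26 and 1.34. In Nkx2.5 over Rex1 Ddc read -0.003 and -0.08. In Flk1 over Rex1 it read -0.91 and -0.83 and in Nkx2.5 over Flk1 0.83 and 0.91, so both populations of day 4.5 read low, and the Flk1 readings did not pass.

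Neighbours of the other genes, named for their position, passed in no comparison. Meg3, the non-coding RNA beside Dlk1, read 0.05 and 0.11 in Nkx2.5 over Rex1, and Dio3, at the far end of that cluster, 0.18 and 0.39. Usp29 and Zim1, which flank Peg3, read -0.42 and -0.80, and -0.64 and -0.53, opposite in sign to the brightest Peg3 feature. Airn, the antisense RNA of Igf2r, read -0.07 and -0.35. The transporter genes Slc22a2 and Slc22a3 of the same cluster read 0.46 and 1.04, and 0.11 and -0.15. Copg2, beside Mest, read 0.62 and 0.15.

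**Figure D5:**
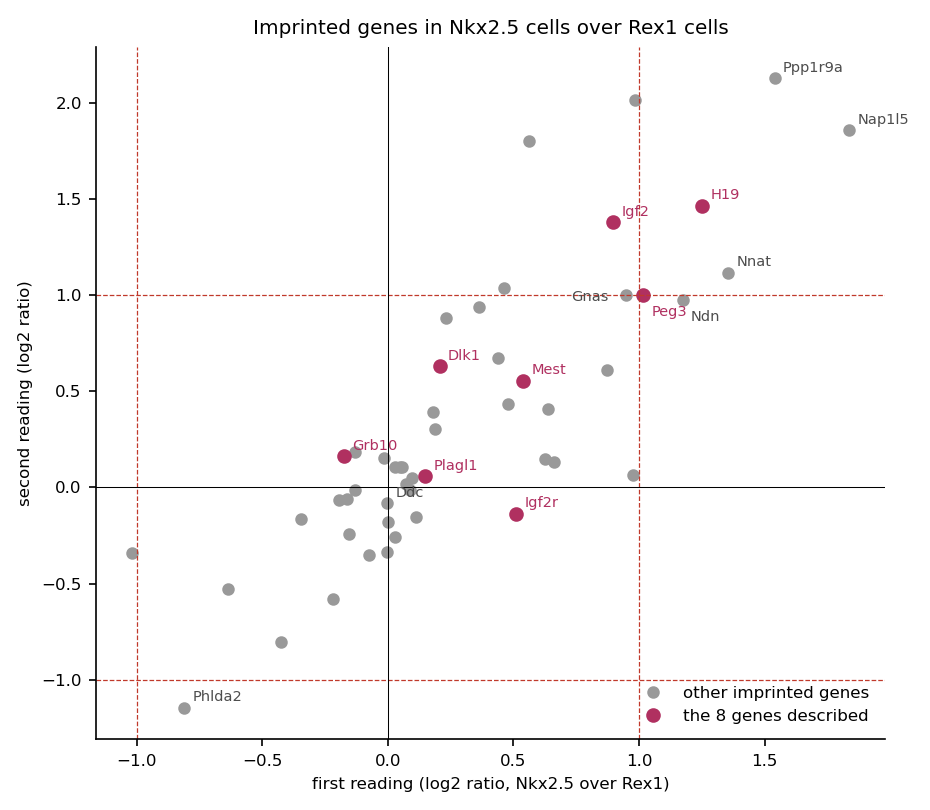
First reading (horizontal axis) against second reading (vertical axis) in Nkx2.5 over Rex1, both log2 ratios, of the 8 genes (red) and of 43 other imprinted genes (grey), with dashed lines at log2 ratios of 1 and -1. H19, Nnat, Nap1l5 and Ppp1r9a lie beyond the lines in both readings, and Peg3 lies on the corner.

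Igf2 acts through the type 1 IGF receptor and the insulin receptor, binding proteins hold it outside the cell, and the Irs adaptors and the PI3K and Akt kinases pass its signal on. Of 33 listed genes 31 were on the array, and Igfbp7, which encodes a secreted binding protein, was the 1 that passed, as higher in Nkx2.5 over Rex1 at 1.33 and 2.65. That is 1 of 31, beside 3.02% of all genes and transcripts. It was well above background on 1 of 3 Rex1 arrays. Igf1r read 0.49 and 0.93 in that comparison and Insr 0.18 and -0.02. Furthest the other way by the smaller of its readings was Pappa, a protease that frees IGFs from binding proteins, at -0.37 and -0.39. Their median first reading was 0.01 in Nkx2.5 over Rex1.

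Of 16 genes that set or keep imprints, 12 were on the array. Dnmt3l, a cofactor of the enzymes that lay down DNA methylation, was lower in Nkx2.5 over Rex1, at -1.23 and -1.85. Dnmt3b, 1 of those enzymes, was lower in Nkx2.5 over Flk1, at -1.05 and -1.59. Furthest the other way by that measure was Smchd1, a chromatin protein of silenced genes, at 0.59 and 0.73 in Nkx2.5 over Rex1. The maintenance enzyme Dnmt1 read -0.01 and 0.01, and Zfp57, a zinc finger protein that protects imprints, -0.22 and 0.10. The other 10 of the 12 passed in no comparison. Of 12 Notch receptors, ligands and targets, the pathway that Dlk1 touches, 0 passed in any comparison. Jag1, named after its values were seen, came nearest, at 0.999 and 0.97 in Bra over Rex1.

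Of 13 housekeeping genes 12 were on the array and B2m passed, as higher in the 3 comparisons with Rex1. The other 11 did not, and their group's median first reading was 0.03 in Nkx2.5 over Rex1. Furthest the other way by the same measure was Hprt, at -0.51 and -0.46.

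The genes with ratios most like those of H19 were found by the root mean square difference over the 5 arrays, among named genes well above background in at least 1 population. They were Olfr716 at 0.13, Olfr211 at 0.20 and Tagln at 0.23. Tagln encodes transgelin, an actin-binding protein of smooth muscle and early heart, and read 1.35 on the Nkx2.5 over Rex1 array, 1.42 on Nkx2.5 over Bra and 1.25 on Nkx2.5 over Flk1. Olfr716 and Olfr211 are odorant receptor genes and read 1.12 and 1.25 on the Nkx2.5 over Rex1 array. The likeness is over 5 arrays that share populations, and it says nothing of shared control.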

How the data were processed

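The deposited scanner files hold, per the file headers, a background-subtracted median signal intensity, a background and a ratio per feature and channel. The authors' deposited series table holds log2 ratios of 28524 probes. It equalled the scanner log2 ratio plus 1 constant per array (from -0.117 to 0.0115), so its scale and direction are known. Per the labels' protocols, RNA was amplified as amino allyl RNA before dye coupling. The scanner software is not given in the sources used here.

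Signals plus background were corrected by normexp (offset 50) and normalised by loess within arrays, controls at weight 0, with limma 3.58.1 in R 4.3.3. Spots that hold controls or quality checks, and empty ones, were dropped. Names came from RefSeq symbols, synonyms and accessions. The brightest feature stood for a gene. Least squares over the 5 ratios gave the fitted levels. The script was tested on simulated data. The size rule was used in place of a test. Named genes were all 8 members, the list genes past the size rule (at most 8 a list), the gene furthest against them, and the 3 genes most like a called member. Members and lists were chosen with earlier results of these data known. The alternatives tried were the background treatment, offset, normalisation, deposited table, feature rule, detection rule, fold and, added after the data were seen, the dimmer H19 feature and a dye term.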

Additional observations from a re-analysis of the deposited data

How the results depend on the processing

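No paired analysis was possible because each pair of populations was hybridised on 1 array. The first readings of H19 in Nkx2.5 over Rex1 and Nkx2.5 over Bra kept their sign under the alternatives run; second readings and listed genes were not followed in this way. Without background subtraction 0 of the 8 genes passed in Nkx2.5 over Rex1 and 0 in Nkx2.5 over Bra, where H19 read 0.79 and 0.81, and over all genes and transcripts that setting gave 2 higher and 3 lower in Nkx2.5 over Rex1, against 585 and 166. With both populations required to be well above background these became 127 and 144, and 279 and 126 with the deposited series table, so the excess of higher over lower calls is not kept or is smaller; H19 passed under both. With a normexp offset of 10, with median centring in place of loess, and from the first reading alone, 2 genes passed in Nkx2.5 over Rex1, H19 and Peg3. At a fold of 1.5, 3 passed there (Igf2, H19 and Peg3), 1 in Bra over Rex1 (Igf2), 1 in Flk1 over Rex1 (Mest) and 1 in Nkx2.5 over Flk1 (Peg3). From the first reading alone, 1 passed in Flk1 over Rex1 (Igf2). Of the 48 first readings, 22 moved beyond the error of 1 array without background subtraction, 12 with the mean over features, 2 with the deposited net signal, 2 with the deposited series table and 0 with the offset of 10 or median centring. Through the dimmer H19 feature, an alternative added after the data were seen, both H19 calls held. With a dye term in the fit, also added then, 25 of the 48 values differed from the first readings beyond that error. This count also holds the step from a first reading to a fitted value, so it is not a count of dye effects. In Flk1 over Bra, for example, Igf2 had a first reading of 0.27. Its fitted difference there was -0.06 both with and without the dye term. The spread of levels from the Rex1 arrays alone stayed within that error for all 8 genes. The weak Cy3 signal of Rex1 cells and the single array a pair limit what can be read.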
